A study of Mus musculus with 4 samples.

Results

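The Ras, Raf and MEK RNAs of a fibroblast line were compared between protrusions and cell bodies. The 7 genes looked for were Hras, Nras and Rras, which encode Ras GTPases, the Raf kinase gene Braf, the MEK genes Map2k1 and Map2k2, and the ERK1 gene Mapk3. Members were all probe sets that the platform annotation gives to 1 of these symbols and to no other gene. This gave 5 of the 18193 genes named singly on the array, with 16 of its 45101 probe sets: 9 for Braf, 3 for Nras, 2 for Map2k2 and 1 each for Map2k1 and Rras. Hras and Mapk3 were not analysed here, so the results describe the GTPase, Raf and MEK steps and not ERK itself.

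Ras proteins are membrane-anchored switches that bind GTP when growth factor or G protein-coupled receptors are active. GTP-bound Ras recruits Raf kinases to the membrane, Raf phosphorylates MEK, and MEK phosphorylates ERK. In fibroblasts the cascade carries signals from serum, growth factors and lysophosphatidic acid (LPA) to proliferation and cell movement, and Rras is known for regulating integrin-dependent adhesion.

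The study used NIH/3T3, an immortalised mouse fibroblast line. Starved cells had spread for 2 h on a fibronectin-coated porous membrane, and LPA at 150 ng/ml was placed under it for 1 h. Pseudopodia, the protrusions pushed through the pores (2 arrays, replicates 1 and 2), were collected from the lower face, and cell bodies (2 arrays, replicates 1 and 2), which include the nuclei, from the upper face. Both fractions came from LPA-stimulated, fixed cells of 1 line, no unstimulated cells were analysed here, and the labels do not say whether the 2 samples of a fraction came from separate cultures, so the spread between them may be technical.

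Each array gives 1 MAS5 signal per probe set, a linear intensity that the authors had scaled to the same trimmed mean of 250 on every array. Signals are quoted on that scale. Differences are on the log2(value + pseudocount) scale, pseudopodia minus cell body, with the signals first brought to a trimmed mean of 500 and a pseudocount of 32 added, and they understate changes of dim probe sets. They are relative to the total signal of each fraction, so less RNA of a gene and more RNA of other genes cannot be told apart. Of 45037 probe sets that are not controls, the brighter 22519 were tested with limma, and 990 of them, or 4.40%, passed an adjusted p of 0.05. Fibroblast markers were above that brightness filter for 9 of 10 genes, with summed signals of 133390 and 143125 in pseudopodia against 145507 and 150548 in cell bodies; the exception was Thy1, at 5.7 to 56.3. Epithelial markers passed the filter for 4 of 6 genes (summed 2412 and 2823 in pseudopodia, 2953 and 2598 in cell bodies), blood cell markers for 1 of 4 (47.6 and 96.6, against 84.0 and 110.0 in cell bodies) and adipocyte and muscle markers for none of 5 (72.2 and 98.7, against 57.9 and 47.9 in cell bodies). The 3' to 5' signal ratio of the beta-actin control, a sign of RNA integrity, was 1.77 and 3.41 in pseudopodia against 1.55 and 1.89 in cell bodies. The same ratio of the Gapdh control was nearly even, at 0.96 and 1.01 in pseudopodia against 0.92 and 0.95 in cell bodies. The part of RNA integrity in the differences below was not tested.

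No member probe set of the Ras, Raf and MEK genes passed the test between pseudopodia and cell bodies. Of the 16, the 11 above the brightness filter were tested with limma. At an unadjusted p under 0.05 stood 2 of the 11, both of Braf, or 18.2%, beside 22.0% of all probe sets tested. The lowest adjusted p was 0.191. In 6 of the 11 the arrays of pseudopodia lay all above (5) or all below (1) those of cell bodies. That was so for 53.0% of all probe sets tested (24.8% above and 28.2% below), so this count is near the background. The median difference of the 11 was 0.21, beside -0.03 for all probe sets tested, and 7 were positive (63.6%, beside 47.7% of all probe sets tested). Within the replicate 1 pair the median of the 11 was 0.29, and within the replicate 2 pair 0.07. In simulated runs with 200 of 22519 probe sets changed, limma found 2.7% of changes of 1 log2 unit. Those runs changed fewer probe sets than the 990 called in the data, so their cutoff was stricter. In the data some differences of about that size passed, such as Rce1, described below, at -0.96. A missing call still does not show an even distribution. The 95% intervals below give sizes that remain possible under this scaling and the spread between these arrays, which may be technical.

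**Figure D1:**
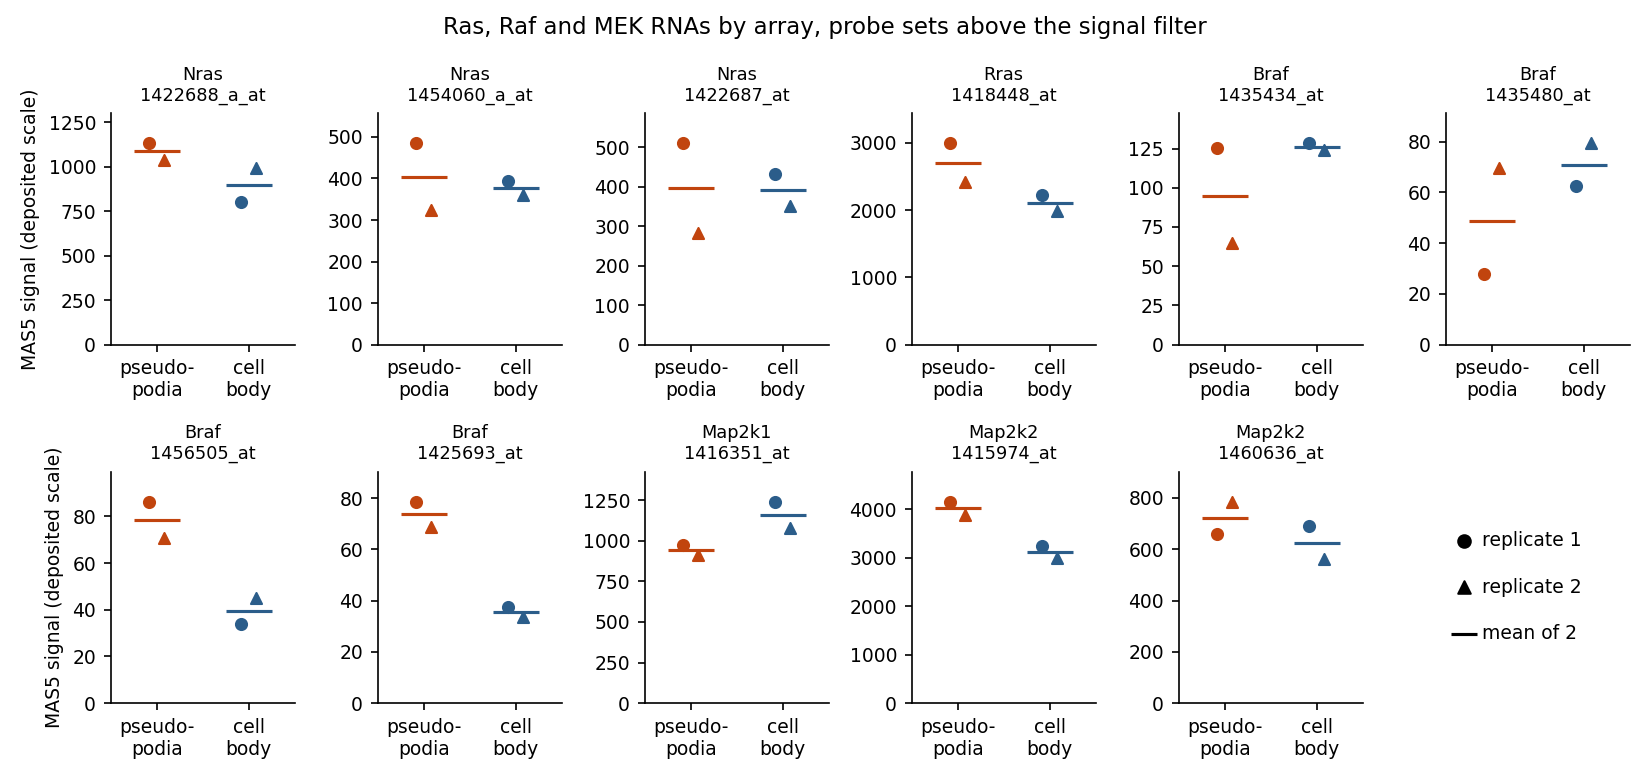
MAS5 signal (vertical axes, from 0, deposited scale) of the 11 member probe sets above the brightness filter, in pseudopodia (left of each panel) and cell bodies (right). Circles are replicate 1, triangles replicate 2 and bars the mean of 2 arrays; the fractions are apart for Rras, Map2k1, 1 probe set each of Nras and Map2k2, and 2 of Braf.

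Among the GTPases, Rras had 1 probe set, 1418448_at, with signals of 2993.0 and 2414.8 in pseudopodia, against 2223.1 and 1989.2 in cell bodies. Both pseudopodia arrays were above both cell body arrays. The difference was 0.35 ± 0.19 (SE, n = 2 arrays per fraction; adjusted p = 0.325 by limma), a fold of 1.28 with a 95% interval of 0.94 to 1.73. A pseudopodial excess of more than 1.73-fold therefore lies outside the interval. The replicate 1 pair gave 0.43 and the replicate 2 pair 0.28, and leaving out 1 array moved the estimate between 0.20 and 0.51.

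Nras, the other GTPase measured, had 3 probe sets that did not share a sign. The brightest, 1422688_a_at, had 1131.7 and 1039.4 in pseudopodia, against 799.7 and 992.1 in cell bodies. The fractions did not overlap there, although replicate 2 of pseudopodia was close to replicate 2 of cell bodies. The difference was 0.28 ± 0.21 (adjusted p = 0.479), with 0.49 in the replicate 1 pair and 0.07 in the replicate 2 pair. Probe set 1454060_a_at had 484.9 and 323.2 in pseudopodia, against 392.8 and 360.9 in cell bodies. Probe set 1422687_at had 510.1 and 281.8 in pseudopodia, against 431.6 and 350.3 in cell bodies. On both of these the 2 pseudopodia arrays lay on either side of the cell body arrays, and the differences were 0.07 ± 0.26 and -0.03 ± 0.31 (adjusted p = 0.905 and 0.965). All 3 probe sets were higher in pseudopodia within the replicate 1 pair, and 1 of them within the replicate 2 pair.

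The MEK genes encode the paired kinases MEK1 (Map2k1) and MEK2 (Map2k2), which phosphorylate ERK. Map2k1 had 976.9 and 914.5 in pseudopodia on 1416351_at, against 1240.7 and 1080.7 in cell bodies. It was the one member probe set on which both pseudopodia arrays were below both cell body arrays. The difference was -0.29 ± 0.20 (adjusted p = 0.434), a fold of 0.82 with a 95% interval of 0.60 to 1.12. Map2k2 had 4158.0 and 3887.4 in pseudopodia on its brightest probe set, 1415974_at, against 3243.6 and 3004.3 in cell bodies. The fractions were apart and the pairs nearly equal, at 0.36 and 0.37. The difference was 0.36 ± 0.16 (adjusted p = 0.244), a fold of 1.29 with a 95% interval of 0.99 to 1.67. With the arrays scaled on the hybridization controls in place of the trimmed mean, the values were 0.03 for Map2k2 1415974_at, -0.62 for Map2k1 and 0.02 for Rras. That scaling put the median of all probe sets at -0.32, against -0.03 in the reported fit. The dimmer Map2k2 probe set, 1460636_at, had 661.3 and 785.3 in pseudopodia, against 692.3 and 560.1 in cell bodies. The fractions overlapped on it, at 0.21 ± 0.22 (adjusted p = 0.638).

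**Figure D2:**
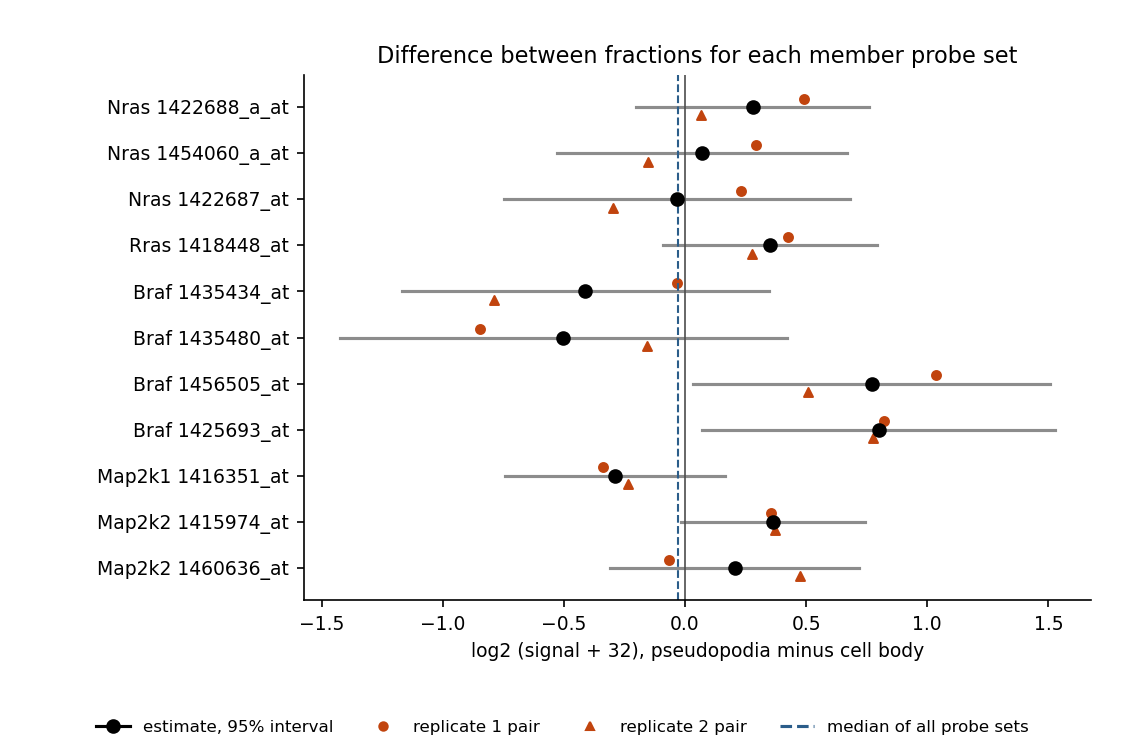
Difference between pseudopodia and cell bodies in log2(signal + 32), horizontal axis, for the 11 tested member probe sets, with the limma estimate and its 95% interval (black and grey) and the replicate 1 and replicate 2 pairs (circles and triangles). The intervals of 9 probe sets include 0, the exceptions being 2 of Braf, and the dashed line marks the median of all probe sets tested, -0.03.

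Because scaling moves both MEK genes of an array alike, their ratio was also followed within each array. The log2 ratio of Map2k1 to Map2k2, each on its brightest probe set, changed by -0.70 in the replicate 1 pair and by -0.61 in the replicate 2 pair, a mean of -0.65, so Map2k1 was lower relative to Map2k2 in pseudopodia. The same change against Rras was 0.64 for Rras over Map2k1 (0.77 and 0.51 in the pairs), while Rras over Map2k2 changed by -0.01 and Nras over Rras by -0.07. With 2 against 2 arrays an exact two-sided permutation test cannot give a p below 0.333, so these ratios are values without a test.

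Braf, the Raf kinase with the strongest MEK-phosphorylating activity of its family, was dim, and its probe sets went opposite ways. On 1425693_at the signals were 78.6 and 68.8 in pseudopodia, against 37.5 and 33.5 in cell bodies. On 1456505_at they were 86.3 and 70.8 in pseudopodia, against 33.9 and 45.1 in cell bodies. On both, the 2 pseudopodia arrays were above both cell body arrays. The differences were 0.80 ± 0.31 (adjusted p = 0.191) and 0.77 ± 0.32 (adjusted p = 0.209), or folds of 1.74 and 1.71 with 95% intervals of 1.05 to 2.89 and 1.02 to 2.84. Probe set 1425693_at was at least 1.5-fold higher in each of the 4 array pairs, as were 2.79% of all probe sets tested.

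The remaining tested Braf probe sets had negative estimates. The brightest, 1435434_at, had 125.1 and 64.9 in pseudopodia, against 128.4 and 123.8 in cell bodies. Replicate 2 of pseudopodia alone was low there, and the difference was -0.41 ± 0.33 (adjusted p = 0.510). Probe set 1435480_at had 27.7 and 69.5 in pseudopodia, against 62.5 and 79.4 in cell bodies. Here replicate 1 of pseudopodia was the low array, and the difference was -0.50 ± 0.40 (adjusted p = 0.511). Leaving out 1 array moved 1435434_at between -0.81 and -0.01 and 1435480_at between -0.99 and -0.02, with the value nearest 0 in each case given without the low pseudopodia array. The log2 ratio of 1425693_at to 1435434_at was higher in pseudopodia by 1.21 (0.86 and 1.57 in the pairs). This was not tested, since 2 against 2 arrays allow no small exact p. Which transcript forms these probe sets read was not analysed here, so no single value stands for Braf RNA.

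The 5 Braf probe sets below the brightness filter were 1447940_a_at, 1442749_at, 1445786_at, 1458641_at and 1447941_x_at. Their signals ran between 2.1 and 47.4 in pseudopodia and between 0.9 and 35.8 in cell bodies. Their estimates ran from -0.24 to 0.41, and the fractions overlapped on all 5. The nearest to the filter, 1447940_a_at, had 47.4 and 7.8 in pseudopodia, against 34.1 and 25.9 in cell bodies.

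For each member gene the most similar other gene was sought over the 4 arrays, by Euclidean distance between centred log2 values of the brightest tested probe sets. The nearest were Plaat3 for Nras (distance 0.0327), Nedd1 for Rras (0.0169), Lyst for Braf (0.0322), Ap1b1 for Map2k1 (0.0139) and Mindy3 for Map2k2 (0.0206). With 4 arrays such matches are common: between 187 probe sets (Braf) and 818 (Map2k2) of other genes lay within a distance of 0.2.

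The wider pathway was read from 85 other genes in 7 roles, each by its brightest probe set and with p adjusted over 10962 genes. Of the 78 that were tested, 3 were higher and 3 lower in pseudopodia, or 7.69%, beside 5.26% of all genes tested (1.82% higher and 3.44% lower). Their median difference was 0.08, beside 0.01 for all genes tested. In a fit that blocks on the replicate number, and with it on the day of scanning, 20 of the 78 passed, 16 higher and 4 lower, among them all 6, beside 19.7% of all genes. Without either cell body array the list had 0 calls, as had all genes. It had 16 without pseudopodia replicate 1 (15.2% of all genes called), where Rap2c was lost, and 8 without pseudopodia replicate 2 (9.89% of all genes called), where Rps6ka3 was lost. Of the 6, only Icmt and Rce1 passed with p adjusted over all probe sets or after median centring, and only these and Zmpste24 with arrays scaled on the hybridization controls, while none passed with no filter or without the variance trend.

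**Figure D3:**
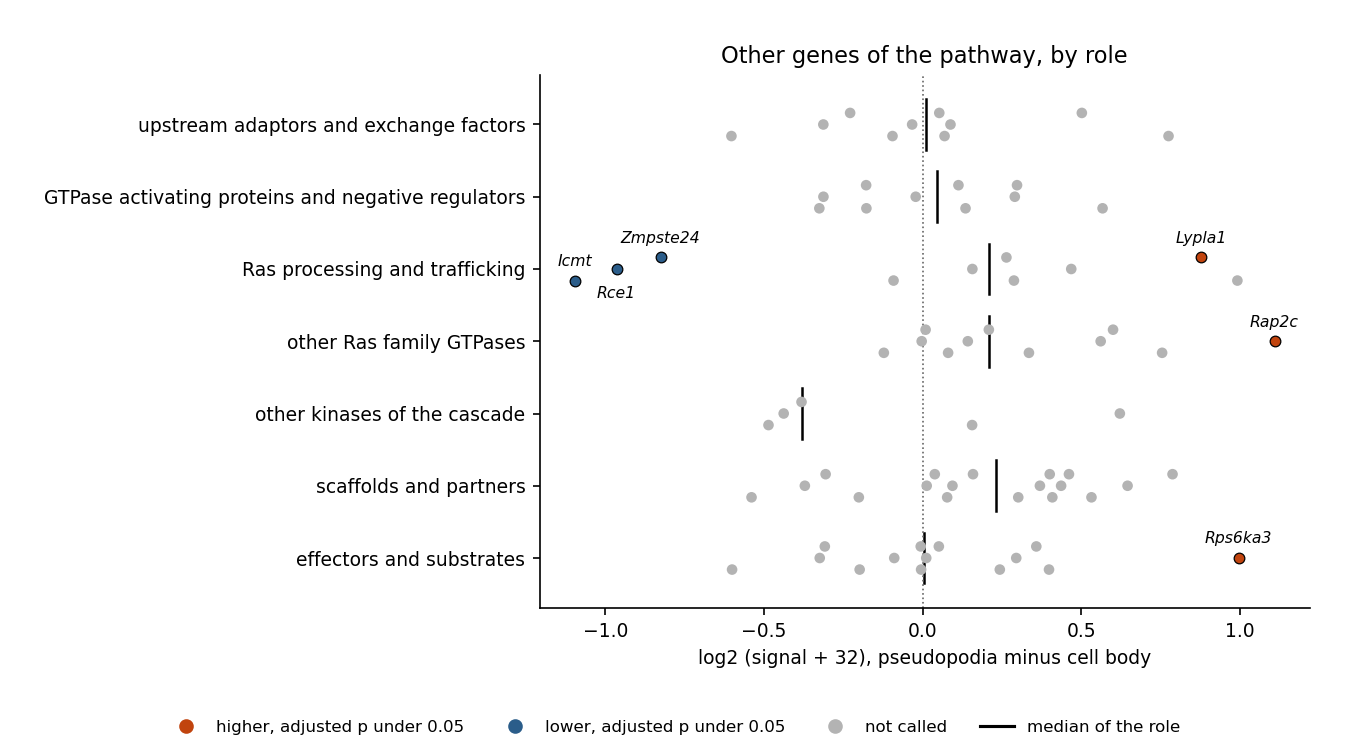
Difference between pseudopodia and cell bodies in log2(signal + 32), horizontal axis, of 78 other pathway genes grouped by role, each a point for its brightest probe set. Named points passed an adjusted p of 0.05 over genes, and black bars are role medians; all 3 genes that fell are in the role of Ras processing and trafficking.

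Of the 6 calls, 4 lay in the listed role of Ras processing and trafficking, where 3 of 10 genes fell and 1 rose. Of all genes tested, 3.44% fell and 1.82% rose, and whether the role differs from them was not tested. New Ras proteins are farnesylated, then trimmed by Rce1, a protease, and methylated by Icmt, a methyltransferase. Icmt had 358.7 and 301.9 in pseudopodia, against 682.7 and 762.3 in cell bodies, and fell by 1.10 on the log2 scale (SE 0.21, adjusted p = 0.0300). Rce1 had 611.4 and 554.6 in pseudopodia, against 1139.3 and 1164.0 in cell bodies, a difference of -0.96 ± 0.19 (adjusted p = 0.0326). Zmpste24, a protease best known for maturing prelamin A, had 866.6 and 817.4 in pseudopodia, against 1474.6 and 1533.8 in cell bodies. Its difference was -0.83 ± 0.19 (adjusted p = 0.0440). On all 3, the cell body signals were well above the pseudopodia signals and the replicates lay close together.

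The prenyltransferases that act before these steps had positive estimates and none passed without the block. Fnta and Fntb, the farnesyltransferase subunits, stood at 0.47 (adjusted p = 0.230, and 0.0360 with the replicate block) and 0.26 (unadjusted p = 0.279). Pggt1b, of an enzyme that adds the longer geranylgeranyl lipid, stood at 0.99 (adjusted p = 0.0542, and 0.00742 with the block). On dimmer probe sets Fnta stood at 0.17 and Pggt1b at 0.31. Lypla1, a thioesterase that removes palmitate from proteins including Ras, rose. It had 718.1 and 771.7 in pseudopodia, against 404.5 and 390.9 in cell bodies, a difference of 0.88 ± 0.19 (adjusted p = 0.0428), while its dimmer probe set stood at 0.19. Zdhhc9 and Golga7, which together palmitoylate Ras, stood at 0.16 and 0.29, and Pde6d, which carries prenylated proteins, at -0.09. On a dimmer probe set Zdhhc9 stood at -0.42, with both pseudopodia arrays below both cell body arrays.

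**Figure D4:**
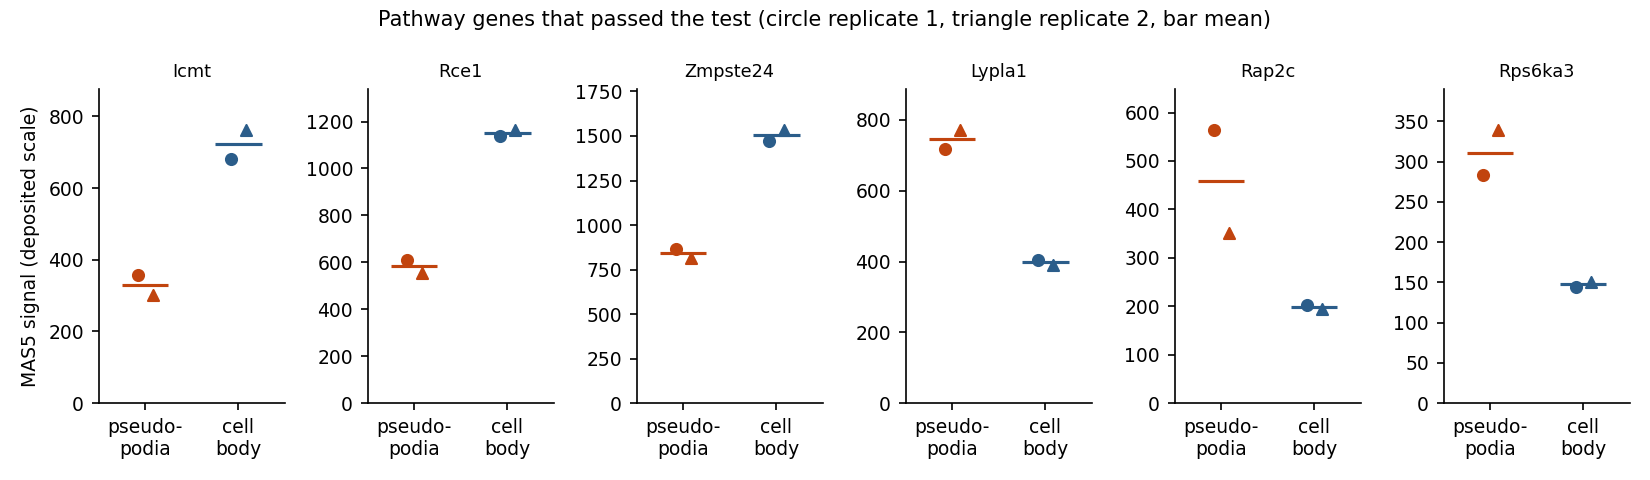
MAS5 signal (vertical axes, from 0, deposited scale) of the 6 pathway genes that passed the test, in pseudopodia (left of each panel) and cell bodies (right), each on its brightest probe set. Circles are replicate 1, triangles replicate 2 and bars the mean of 2 arrays; Icmt, Rce1 and Zmpste24 are lower and Lypla1, Rap2c and Rps6ka3 higher in pseudopodia.

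Among 11 other Ras family GTPases, 1 rose and none fell, and 9 had positive estimates, beside 51.2% of all genes. The one was Rap2c, of the Rap subfamily, with 564.0 and 352.3 in pseudopodia, against 203.2 and 193.6 in cell bodies. Its difference was 1.11 ± 0.26 (adjusted p = 0.0477), and 0.52 and 0.48 on its dimmer probe sets, which did not pass. Rala and Ralb, whose activators are Ras effectors, stood at 0.75 (adjusted p = 0.0626) and 0.56 (adjusted p = 0.145). With the replicate block both passed (adjusted p = 0.00538 and 0.0193), as did Rap1a at 0.60 (adjusted p = 0.0282). The dimmer probe sets of these genes stood lower, at 0.08 for Rala, 0.03 for Ralb and 0.15 for Rap1a. Rras2, the closest relative of Rras on the list, stood at -0.12 and Mras at 0.01. On dimmer probe sets Rras2 stood at 0.20, with both pseudopodia arrays above both cell body arrays, and Mras at 0.13.

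Of 14 effectors and substrates, 1 rose and none fell. Rps6ka3, the RSK2 kinase that ERK activates, had 283.2 and 339.3 in pseudopodia, against 144.1 and 151.1 in cell bodies, a difference of 1.00 ± 0.22 (adjusted p = 0.0406), while its dimmer probe set stood at 0.08. Rassf1, a tumour suppressor with a Ras association domain, was lower on all 3 of its probe sets, at -0.60 on the brightest (adjusted p = 0.223, and 0.0318 with the replicate block), -0.72 and -1.43, the last of which passed over probe sets (adjusted p = 0.0409). None of the 10 upstream adaptors and exchange factors passed by limma. The largest statistic among them was that of Ptpn11, the SHP2 phosphatase needed for Ras activation, at 0.77 ± 0.18 (adjusted p = 0.0506, and 0.00194 with the replicate block), with its other probe sets at 1.68 and -0.07. Grb2, the adaptor that brings the exchange factor Sos1 to receptors, stood at 0.05, and Sos1 at 0.50. Their dimmer probe sets stood at 0.08 for Grb2 and -0.12 for Sos1. None of the 10 GTPase activating proteins and negative regulators passed either. Their largest statistic was that of Rasa1, p120 RasGAP, at 0.57 ± 0.23 (adjusted p = 0.195). Its dimmer probe set stood at 1.32 and passed with p adjusted over probe sets (adjusted p = 0.0419). Nf1, another GTPase activating protein, stood at -0.18.

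None of the 5 other kinases of the cascade passed by limma, and their median was -0.38. The Raf family kinase Araf stood at -0.49 (adjusted p = 0.230), with its other probe sets between -0.66 and 0.35. Map2k5, which activates ERK5 and had the largest statistic in its role, stood at -0.44 ± 0.20 (adjusted p = 0.230). Its other probe sets stood between -0.53 and 0.40. None of the 18 scaffolds and partners passed, although 14 had positive estimates and their median was 0.23. With the replicate block 7 of them were higher and none lower: Ppp1cb, Ppp1cc, Lamtor1 and the 14-3-3 genes Ywhab, Ywhae, Ywhag and Ywhaq. That fit called 19.7% of all genes, in either direction. Dimmer probe sets stood at -0.80 and 0.01 for Ywhag, -0.33 for Ppp1cc and between -0.35 and 0.77 for Ywhaq. Those of Lamtor1, Ywhab and Ywhae were all positive. The 14-3-3 genes Ywhaz (-0.54, with other probe sets between -0.76 and 0.73) and Ywhah (-0.31) did not pass. Ppp1cb, a catalytic subunit of the phosphatase that acts on Raf in complex with Shoc2, stood at 0.79 ± 0.19 (adjusted p = 0.0534, and 0.00441 with the block), and a dimmer probe set at 1.21 passed over probe sets (adjusted p = 0.0487). The rest of its probe sets stood at 0.50 and 0.0005 and did not pass. Ywhab, a member of the 14-3-3 proteins that can hold Raf inactive, stood at 0.65 (adjusted p = 0.0569, and 0.00313 with the block). Iqgap1, a scaffold of Raf, MEK and ERK, had 3491.4 and 3440.4 in pseudopodia, against 3417.1 and 3453.4 in cell bodies. Its difference was 0.01 ± 0.16, while another, dimmer probe set stood at -0.96 (adjusted p = 0.0883 over probe sets).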

How the data were processed

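The 4 samples were hybridized to arrays of 1 design, chip lot and scanner, per the file headers. The deposited table gives an intensity for every probe set and array, made with MAS5, per the submitters' processing notes; version, detection calls and scaling target are not given in the sources used here. Fixation, crosslink reversal and dim signals can all add noise. The platform annotation named genes (34958 probe sets with 1 symbol, 932 with several, 9211 unnamed here). No genome was used, so where probe sets lie in their genes was not analysed here.

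Each array was brought to a 2% trimmed mean of 500, and log2(signal + 32) was taken. The filter kept the probe sets, controls aside, whose mean log2 value reached the median. The test was that of limma 3.58.1, run in R 4.3.3 (variance trend, two-sided, Benjamini-Hochberg over all probe sets or genes kept, threshold 0.05, no block). In 10 simulated runs with 200 of 22519 probe sets changed between pseudopodia and cell bodies, limma found 2.7% of the changes that measured 1 log2 unit and 46.6% of those that measured 2. In the data 990 probe sets passed, so the cutoff was less strict there, and these shares do not carry over directly. Signal over background and the 2 arrays per fraction limit the precision.

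Replicate numbers pair the arrays through a shared scan day and experiment code; replicate 2 minus replicate 1 differences in pseudopodia and cell bodies correlated across probe sets with r = 0.243. With the block, 1 residual degree of freedom remains and the prior contributes 16.8, so those p-values rest mostly on a shared spread. Members, lists and tests were chosen with earlier results of these data known. Named genes are all member probe sets, pathway genes past the threshold, and otherwise the largest statistic of a role; other genes named were picked after their values were seen. Alternatives covered scaling, pseudocount, filter, variance model, block and each array left out.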

Additional observations from a re-analysis of the deposited data

How the results depend on the processing

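No member probe set was called under any of the alternatives run, and the tested member probe sets kept their sign in 92 of 99 values from alternatives that can change the estimate (the block, the filters and the variance trend cannot). Scaling on the hybridization controls moved the median of all probe sets to -0.32 and that of the members to -0.12, which is 0.20 above it (0.23 above in the reported fit), and turned Nras 1422688_a_at (-0.048), Nras 1454060_a_at (-0.25) and Map2k2 1460636_at (-0.12), with Rras at 0.02, Map2k2 1415974_at at 0.03 and Map2k1 at -0.62. Nras 1422687_at stood at 0.094 after quantile normalization. Leaving out 1 array moved the members' median between 0.06 and 0.35, Nras 1454060_a_at between -0.21 and 0.35 Nras 1422687_at between -0.44 and 0.38, Rras between 0.20 and 0.51, Map2k1 between -0.39 and -0.19, Map2k2 1415974_at between 0.31 and 0.42 and 1460636_at between 0.06 and 0.35, and Nras 1422688_a_at between 0.13 and 0.43. Pathway genes called were 6 of 78 as reported (5.26% of all genes). They numbered 20 with the replicate block (19.7%), 2 after median centring (Icmt and Rce1; 3.82%), 3 on hybridization controls (these and Zmpste24; 5.46%), 10 of 66 with the stricter upper-quarter filter (9.78%), 0 with no filter (0.33%), 0 without the variance trend, where no gene was called, and between 0 and 16 with 1 array left out. The 6 kept their signs throughout. With every kept probe set counted and p adjusted over probe sets, 5 passed: Icmt, Rce1, Rassf1 (-1.43), Rasa1 (1.32) and Ppp1cb (1.21). Over all probe sets, 990 calls became 4087 with the block, 1560 on hybridization controls (54 higher and 1506 lower, against 243 and 747), 176 with no filter, 0 without the trend (4487 at an unadjusted p under 0.05) and 0 to 3956 with 1 array left out. The block changed no call on a member; its lowest member adjusted p was 0.0949, for Map2k2 1415974_at. The causes were not tested. A fit without 1 array assumes that the lone array varies like the other fraction.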
